A study of Homo sapiens with 4 samples.

Results

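The mitochondrial chromosome of human cells carries 37 genes, 13 for mRNAs, 2 for rRNAs and 22 for tRNAs, and every gene of the deposited table whose symbol starts with MT- was taken, which gave exactly these 37 of 62443 genes. They were measured by RNA-seq in HGC-27, an established human gastric cancer cell line, in 2 control libraries and 2 libraries from cells given GLUP. GLUP is a synthetic linker peptide built from the part of VGLL4 that binds TEAD4, a DNA-binding transcription factor of the Hippo pathway, and it was designed to hold TEAD4 molecules together. The labels call the control treatment none, whereas the study's methods name the peptide's storage buffer as the control. The peptide was used at 10 μg/ml, and the exposure is given as 12 h where the experiment is described and as 48 h in the methods. Nothing in the labels says that the 2 libraries of a group came from separate cultures, although the methods speak of biological replicates, so the tests measure the spread between these libraries, which may be technical in part.

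The table holds FPKM, fragments scaled to gene length and to the mapped total of the library. The length used is not given in the sources used here, so levels of different genes can be compared only approximately. The depth of each library is unknown. Neither selection of polyadenylated RNA, removal of rRNA nor strand marking is named in the sources used here. The line was checked against fixed markers. Of the 3 mesenchymal markers, the filament protein vimentin stood between 293 and 387 FPKM, fibronectin, FN1, between 0.655 and 3.25 FPKM, and the cadherin CDH2 at no more than 0.0508 FPKM. The epithelial keratins KRT8, KRT18 and KRT19 stood between 0.764 and 2.25 FPKM, and the epithelial adhesion genes EPCAM and CDH1 at no more than 0.124 FPKM. Among the markers of other cell types, CD3E was listed at 0 in every library and PTPRC, CD68 and VWF stood at no more than 0.0394 FPKM, while the stromal genes LUM and COL3A1 reached 76.7 and 21.5 FPKM and COL1A1 6.90 FPKM. Of the 5 epithelial markers of this gastric line, the keratins were thus low and the adhesion genes at or near 0.

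Mitochondrial DNA is a small circle that is read on both strands by the polymerase POLRMT with the factors TFAM and TFB2M. Each strand gives a long precursor that spans many genes, and the tRNAs, which lie between most of the mRNAs and rRNAs, are cut out at both ends to release the rest. On the map, 28 of the genes lie on the strand of the reference sequence, which carries the products of heavy-strand transcription, and the other 9, MT-ND6 and 8 tRNAs, are products of the light strand. The mRNAs encode core subunits of respiratory complexes I, III, IV and V, and the rRNAs and tRNAs serve the ribosomes that translate them. Genes of a strand share a precursor, and their levels can then come to differ through termination, cutting, polyadenylation and decay.

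The compact layout shows best in 3 places that matter for the values below, and their sequences are given from the GRCh37 reference genome, whose chromosome M has 16569 bases. All 37 genes have the same positions there as in the RefSeq annotation of GRCh38.p14. The densest cluster of light-strand tRNAs held 91.3% to 94.3% of the summed tRNA FPKM in each library, and its 4 genes are shown as transcribed, on the minus strand, with the anticodon in capitals. They are MT-TA at chrM:5587-5655, MT-TN at chrM:5657-5729, MT-TC at chrM:5761-5826 and MT-TY at chrM:5826-5891.
MT-TA: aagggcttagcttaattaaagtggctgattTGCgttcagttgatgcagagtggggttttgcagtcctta
MT-TN: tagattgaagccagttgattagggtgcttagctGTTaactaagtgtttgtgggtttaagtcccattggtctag
MT-TC: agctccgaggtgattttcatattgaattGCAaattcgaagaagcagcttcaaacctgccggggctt
MT-TY: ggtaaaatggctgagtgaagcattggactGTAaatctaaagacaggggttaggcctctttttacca
The 31 bases that separate MT-TC from MT-TN, at chrM:5730-5760, are the light-strand origin of replication. Read on the same minus strand, they hold complementary arms of 8 bases, in capitals, around a loop of 12. The aag that ends the stretch is also complementary to the ctt that ends MT-TC, so the pairing can extend into MT-TC.
between MT-TC and MT-TN: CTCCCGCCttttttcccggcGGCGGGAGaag

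Another 2 stretches are shared by neighbouring mRNAs that stay joined as a single transcript, so that reads from them belong to both genes. MT-ATP8 and MT-ATP6 share 46 bases at chrM:8527-8572 on the plus strand, shown from the start codon of MT-ATP6 to the stop codon of MT-ATP8, both in capitals.
MT-ATP8 and MT-ATP6 overlap: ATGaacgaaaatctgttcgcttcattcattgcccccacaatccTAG
MT-ND4L and MT-ND4 share 7 bases, in capitals below within chrM:10745-10781 on the plus strand.
MT-ND4L and MT-ND4 overlap: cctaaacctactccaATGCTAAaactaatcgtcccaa
Shorter overlaps joined MT-ATP6 to MT-CO3 by 1 base, MT-TC to MT-TY by 1 base and, on opposite strands, MT-TI to MT-TQ by 3 bases. By their annotated positions, 6 of the 13 mRNAs end in the DNA with T or TA: MT-ND1, MT-ND2, MT-CO3, MT-ND3, MT-ND4 and MT-CYB. Their stop codon is complete only after a poly(A) tail is added. MT-ATP6 is annotated to end in TAA, but its last A is the base it shares with MT-CO3. A cut at the start of MT-CO3 would leave MT-ATP6 ending in TA.

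The share of mitochondrial RNA was large and similar in the 4 libraries. The 37 genes summed to 247304 and 250428 FPKM in control replicates 1 and 2 and to 277854 and 260041 FPKM in GLUP replicates 1 and 2. That was 27.2% and 27.2% of the summed FPKM of all genes in the controls and 29.7% and 27.4% with GLUP. Both GLUP libraries lay above both controls, by 0.11 on the log2 scale with a pooled SD of 0.05 (n = 2 per group, exact permutation p = 0.3333, two-sided, the smallest that 2 libraries against 2 can give), and by 0.063 without GLUP replicate 1. Among the 50 genes of highest mean in the whole table, 12 were mitochondrial, with MT-CO2 at rank 1 and MT-ND4L at rank 2. Weighted by annotated gene length, the 37 genes came to an estimated 16.6% and 16.9% of fragments in the controls. With GLUP the estimate was 21.2% and 19.1%. These shares are approximate, since the length by which FPKM was scaled is not given in the sources used here. In bulk RNA, a difference in the number of cells of a kind and a difference in RNA per cell cannot be told apart.

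None of the 37 genes passed limma's test at an adjusted p under 0.05, against a background of 0.0264% of the 7588 genes tested, which is 2 genes. All 37 entered the test, and the lowest level of any of them in any library was 8.14 FPKM. The lowest adjusted p among them was 0.10, and at an unadjusted p under 0.05 there were 6 of 37 higher with GLUP (background 6.37%) and 1 lower (background 25.4%). Both GLUP libraries lay above both control libraries for 14 genes, which is 37.8% of the 37 against 17.5% of all genes tested. They lay below both controls for 4 genes, MT-CO2, MT-ND4, MT-ND6 and MT-TP, which is 10.8% against 49.7%, and the groups overlapped for the other 19. A fold change over 2 was met by 4 of the 37 upwards (background 6.83%) and by 0 downwards (background 16.3%). Over all genes tested, the log2 fold changes had a median of −0.36, so every fold change below stands 0.36 higher when read against that median. For the 37 genes the median was 0.28, or 0.64 above the median of all genes, with 22 genes above 0 and 33 above the median of all genes. The number called depended on the controls. Without control replicate 1, with the lone control assumed to vary like the GLUP pair, limma called 17 of the 37, which is 45.9% against 53.2% of all genes tested in that fit. Without control replicate 2 it called 4, which is 10.8% against 18.7% of all genes.

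**Figure D1:**
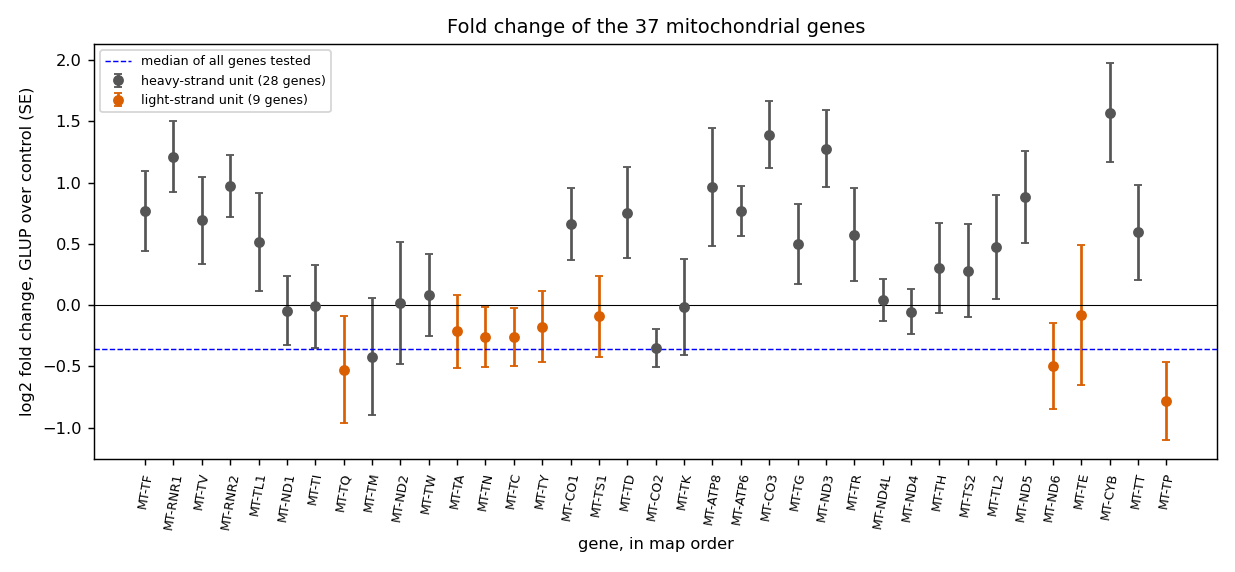
Log2 fold change of GLUP over control (points, bars are the limma SE, 2 libraries per group) for the 37 genes in the order of the map, with light-strand genes in orange and heavy-strand genes in grey, and the median of all genes tested as a dashed line. The orange points lie between −0.78 and −0.08, whereas 22 of the 28 grey points lie above 0.

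Both rRNAs were higher in both GLUP libraries. MT-RNR1, the RNA of the small mitochondrial ribosomal subunit, stood at 1208 and 1274 FPKM in control replicates 1 and 2 and at 3399 and 2437 FPKM in GLUP replicates 1 and 2. MT-RNR2, the RNA of the large subunit, stood at 11793 and 10199 FPKM in the controls and at 25801 and 17946 FPKM with GLUP. For both rRNAs the GLUP libraries were clear of the controls, and GLUP replicate 1 was the highest. The log2 fold change was 1.21 (SE 0.29, limma adjusted p = 0.10) for MT-RNR1 and 0.97 (SE 0.25, limma adjusted p = 0.10) for MT-RNR2. The genes are neighbours near the start of the heavy-strand unit, separated by MT-TV alone. MT-RNR2 exceeded MT-RNR1 per length by 9.76 and 8.01 in the controls and by 7.59 and 7.37 with GLUP, a log2 difference of −0.24 (pooled SD 0.14, exact permutation p = 0.3333), which was −0.098 without control replicate 1.

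The balance of mRNA to rRNA was lower with GLUP in both libraries. The summed FPKM of the 13 mRNAs was 15.6 and 18.7 times that of the 2 rRNAs in the controls and 7.74 and 10.5 times with GLUP. The groups did not overlap, and the log2 difference was −0.92 (pooled SD 0.26, exact permutation p = 0.3333, the smallest possible). Without MT-CO2 the difference was −0.49, an alternative chosen after the data had been seen. The summed mRNAs alone stood at 202316 and 214873 FPKM in the controls and at 226066 and 214877 FPKM with GLUP, so the groups nearly met. The 2 rRNAs together stood at 13001 and 11473 FPKM against 29200 and 20382 FPKM.

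Among the mRNAs, levels per length spanned a wide range although 12 of the 13 come from the heavy strand. The highest heavy-strand mRNA exceeded the lowest by 338 and 434 times in the controls and by 119 and 223 times with GLUP. The range was narrower in both GLUP libraries. MT-CO2 was the highest in every library, followed by MT-ND4L. The order of the levels was otherwise close between libraries, with Spearman's rho over all 37 genes between 0.963 and 0.995 for the 6 pairs of libraries, a description over genes that share precursors and library.

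**Figure D2:**
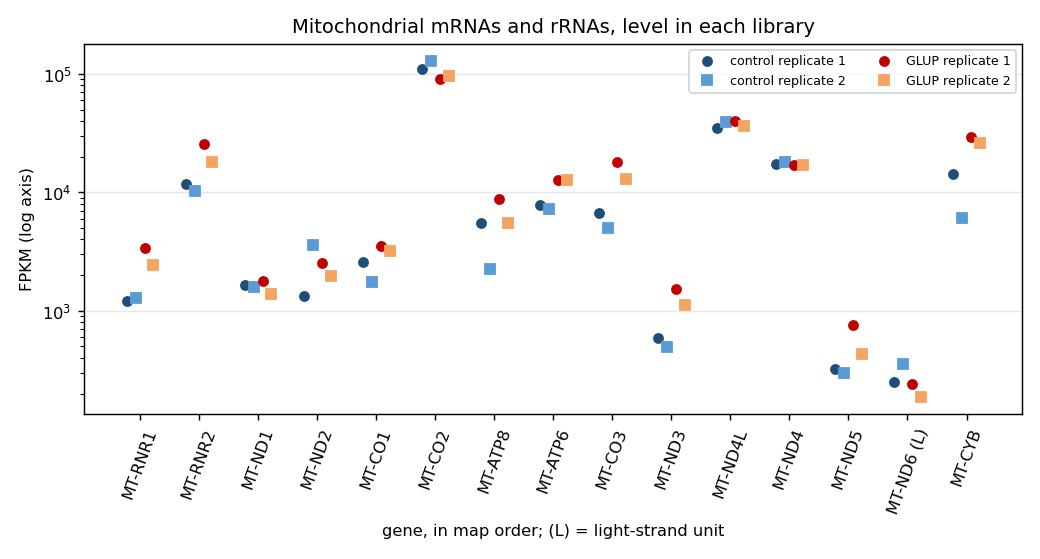
FPKM on a log axis of the 13 mRNAs and 2 rRNAs in map order, each point a library, with controls in blue and GLUP libraries in red and orange. MT-RNR1, MT-RNR2, MT-CO1, MT-ATP6, MT-CO3, MT-ND3, MT-ND5 and MT-CYB show both GLUP points above both control points. MT-CO2, MT-ND4 and MT-ND6 show both below, MT-ND4 by little.

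Complex IV, cytochrome c oxidase, has its 3 core subunits encoded here, and their mRNAs differed in opposite directions. MT-CO2, which carries the copper centre that accepts electrons from cytochrome c, stood at 109074 and 129095 FPKM in control replicates 1 and 2 and at 90005 and 95917 FPKM in GLUP replicates 1 and 2. MT-CO3, a core subunit without a metal centre, stood at 6727 and 5011 FPKM in the controls and at 17870 and 12994 FPKM with GLUP. MT-CO1, which holds the site of oxygen reduction, stood at 2562 and 1752 FPKM in the controls and at 3539 and 3177 FPKM with GLUP. None of these groups overlapped, and MT-CO2 was the lower and MT-CO3 and MT-CO1 the higher with GLUP. The log2 fold change was −0.35 (SE 0.16, limma adjusted p = 0.181) for MT-CO2, which is 0.0023 from the median of all genes, so its direction against that median depends on the scaling. It was 1.39 (SE 0.27, limma adjusted p = 0.10) for MT-CO3 and 0.66 (SE 0.29, limma adjusted p = 0.181) for MT-CO1, which was 0.39 without control replicate 2. Ratios within a library, which no scaling between libraries can alter, showed the same split. MT-CO3 over MT-CO2 was 0.0617 and 0.0388 in the controls and 0.199 and 0.135 with GLUP, a log2 difference of 1.74 (pooled SD 0.43, exact permutation p = 0.3333). MT-CO2 over MT-CO1 was 42.6 and 73.7 in the controls and 25.4 and 30.2 with GLUP.

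MT-CYB, cytochrome b and the sole subunit of complex III encoded in the mitochondrion, had the largest fold change of the 37 genes in the fit of all 4 libraries. It stood at 14207 and 6116 FPKM in the controls and at 29365 and 26170 FPKM with GLUP. Both GLUP libraries were above both controls, and the controls were farther apart than the GLUP pair, by 1.22 on the log2 scale against 0.17. The log2 fold change was 1.57 (SE 0.41, limma adjusted p = 0.101). Without control replicate 2 it was 0.96, below MT-RNR1 at 1.25, MT-CO3 at 1.18 and MT-ND3 at 1.16. Relative to the median of all genes it was 1.93. With the GC trend removed, where that median was 0.00078, it was 1.97, below MT-ND3 at 1.98. Against MT-CO2 in the same library, MT-CYB was 0.130 and 0.0474 in the controls and 0.326 and 0.273 with GLUP. Of complex V, the ATP synthase, MT-ATP6 encodes the subunit that forms the proton path with the rotating ring. MT-ATP6 stood at 7777 and 7165 FPKM in the controls and at 12765 and 12620 FPKM with GLUP. The pairs were tight and clear of each other, with a log2 fold change of 0.77 (SE 0.20, limma adjusted p = 0.101). MT-ATP8, a small membrane subunit read from the same transcript, stood at 5531 and 2265 FPKM in the controls and at 8729 and 5472 FPKM with GLUP. Its groups overlapped, since GLUP replicate 2 lay below control replicate 1, and its log2 fold change of 0.97 had an SE of 0.48 (limma adjusted p = 0.216) and was 0.32 when control replicate 2 was left out and 1.61 when control replicate 1 was. Although they share a transcript and 46 bases, MT-ATP8 over MT-ATP6 varied from 0.316 to 0.711 among the 4 libraries, with control replicate 1 and GLUP replicate 1 the high pair. Its log2 difference between the groups was 0.20 with a pooled SD of 0.67, and it changed sign with the library left out, to −0.39 without control replicate 2 and −0.13 without GLUP replicate 1.

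Complex I, NADH dehydrogenase, has 7 of its subunits encoded here, and their mRNAs were unequal in level and in direction. MT-ND4L stood at 35045 and 39057 FPKM in the controls and at 39821 and 36554 FPKM with GLUP, and its groups overlapped. MT-ND4, on the same transcript, stood at 17229 and 18065 FPKM in the controls and at 17111 and 16898 FPKM with GLUP. MT-ND1 stood at 1657 and 1590 FPKM in the controls and at 1791 and 1382 FPKM with GLUP. All 3 encode membrane subunits, and their log2 fold changes were 0.04 (SE 0.17), −0.05 (SE 0.18) and −0.05 (SE 0.28), with limma adjusted p of 0.868, 0.853 and 0.915. MT-ND4 counted among the genes with both GLUP libraries below both controls, although its values were close together. MT-ND4L over MT-ND4, the pair joined by 7 bases, had the smallest pooled SD of the ratios computed between pairs of genes, 0.07 on the log2 scale. This ratio was 2.03 and 2.16 in the controls and 2.33 and 2.16 with GLUP. MT-ND4L was thus the higher in every library although the genes share a transcript, so levels per length compare only roughly between genes. MT-ND2 stood at 1346 and 3603 FPKM in the controls and at 2533 and 1964 FPKM with GLUP. Both GLUP values lay between the controls, which differed by 1.42 on the log2 scale, and the log2 fold change of 0.02 had an SE of 0.50.

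MT-ND3 and MT-ND5 were higher in both GLUP libraries. MT-ND3, a short subunit at the joint of the membrane arm and the arm that takes up NADH, stood at 585 and 496 FPKM in the controls and at 1540 and 1112 FPKM with GLUP. MT-ND5, a proton-pumping subunit at the far end of the membrane arm, stood at 322 and 298 FPKM in the controls and at 757 and 431 FPKM with GLUP. The log2 fold change was 1.28 (SE 0.31, limma adjusted p = 0.10) for MT-ND3 and 0.88 (SE 0.38, limma adjusted p = 0.172) for MT-ND5, which was 0.47 without GLUP replicate 1. MT-ND6, the membrane subunit that is the sole mRNA of the light strand, stood at 253 and 359 FPKM in the controls and at 242 and 187 FPKM with GLUP. Both GLUP libraries were below both controls, the nearer by little, and the log2 fold change was −0.50 (SE 0.35, limma adjusted p = 0.340). Relative to the median of all genes MT-ND6 was at −0.15, and at 0.12 once the GC trend was removed.

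The makeup of the mRNAs was also compared as shares of their sum within each library. MT-CO2 made up 53.9% and 60.1% of the summed FPKM of the 13 mRNAs in the controls and 39.8% and 44.6% with GLUP, 14.8 percentage points lower (pooled SD 3.91, exact permutation p = 0.3333). MT-CYB made up 7.02% and 2.85% in the controls and 12.99% and 12.2% with GLUP. MT-CO3 made up 3.32% and 2.33% against 7.90% and 6.05%. MT-CO2 thus held a smaller share and MT-CYB and MT-CO3 a larger share in both GLUP libraries. By complex, the mRNAs of complex I held 27.9% and 29.5% in the controls and 28.2% and 27.2% with GLUP, with overlap. Those of complex IV held 58.5% and 63.2% against 49.3% and 52.2%, and those of complex V held 6.58% and 4.39% against 9.51% and 8.42%, both without overlap. The 12 mRNAs other than MT-CO2 summed to 93242 and 85778 FPKM in the controls and to 136061 and 118960 FPKM with GLUP.

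**Figure D3:**
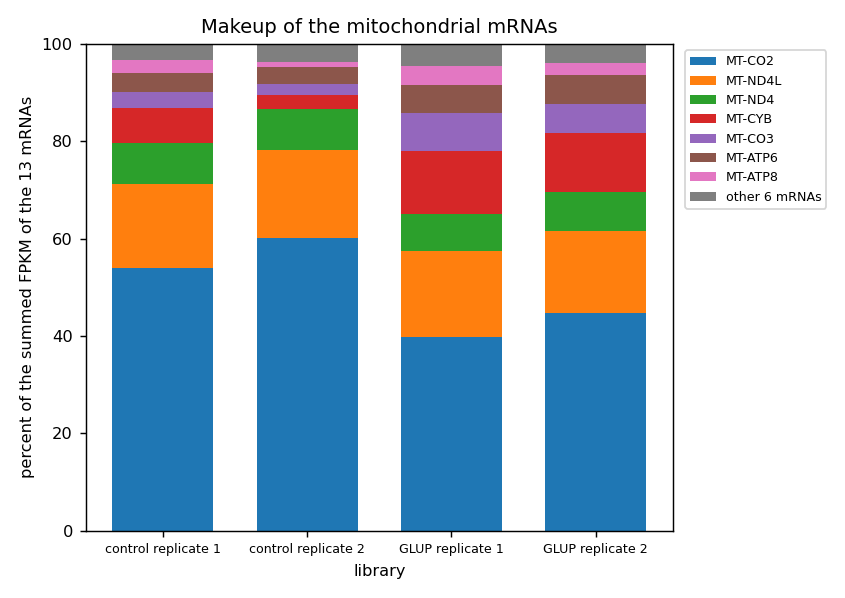
Share of each mitochondrial mRNA in the summed FPKM of all 13, in percent, as a stacked bar per library. The bottom block, MT-CO2, is 53.9% and 60.1% in the controls and 39.8% and 44.6% with GLUP, while the blocks of MT-CYB and MT-CO3 are thicker with GLUP and those of MT-ND4L and MT-ND4 are of like size in all 4 bars.

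The tRNA genes are short, between 59 and 75 bases, and how fragments longer than a tRNA were assigned to them is not given in the sources used here, so mature tRNA and uncut precursor cannot be told apart in these values. Their levels were far from equal. The 4 neighbours whose sequences are printed above, around the light-strand origin, held between 91.3% and 94.3% of the summed FPKM of the 22 tRNAs. MT-TC, for cysteine, stood at 10265 and 8281 FPKM in the controls and at 7069 and 8348 FPKM with GLUP. MT-TN, for asparagine, stood at 9571 and 7201 FPKM in the controls and at 6473 and 7405 FPKM with GLUP. These 2 lie on either side of the origin and were the highest of the tRNAs in every library, with overlapping groups. MT-TY, for tyrosine, stood at 5423 and 3572 FPKM against 3727 and 4075 FPKM. MT-TA, for alanine, stood at 4904 and 3145 FPKM against 3359 and 3415 FPKM. Control replicate 1 was the highest of the 4 libraries for all 4 of these tRNAs, and their log2 fold changes lay between −0.26 and −0.18, with SEs between 0.24 and 0.30. Measured against the median of all genes they lay between 0.09 and 0.18, so the direction of each depends on the scaling.

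The other 18 tRNAs stood between 8.14 and 775 FPKM, and 15 of them were under 150 FPKM in every library. MT-TP, for proline, the light-strand tRNA nearest the control region from which transcription starts, stood at 569 and 775 FPKM in the controls and at 367 and 404 FPKM with GLUP. It was the sole tRNA with both GLUP libraries below both controls, with a log2 fold change of −0.78 (SE 0.32, limma adjusted p = 0.157). Relative to the median of all genes, MT-TP was at −0.43, and at 0.10 with the GC trend removed. Its neighbour MT-TT, for threonine and on the heavy strand, stood at 74.5 and 44.4 FPKM in the controls and at 96.9 and 78.6 FPKM with GLUP. MT-TP over MT-TT within a library was 7.63 and 17.5 in the controls and 3.79 and 5.14 with GLUP, a log2 difference of −1.39 (pooled SD 0.64, exact permutation p = 0.3333), which was −0.79 without control replicate 2. The groups of this ratio did not overlap.

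Among the heavy-strand tRNAs, 6 of 14 had both GLUP libraries above both controls, which is 42.9% against the background of 17.5%. They were MT-TF, MT-TV, MT-TD, MT-TG, MT-TR and MT-TT. MT-TF, for phenylalanine and the first gene of the unit, stood at 10.3 and 8.14 FPKM in the controls and at 18.5 and 14.3 FPKM with GLUP. MT-TV, for valine and lying between the rRNAs, stood at 47.3 and 48.02 FPKM in the controls and at 95.1 and 63.3 FPKM with GLUP. MT-TD, for aspartate and lying before MT-CO2, stood at 22.9 and 17.8 FPKM in the controls and at 43.4 and 27.8 FPKM with GLUP. GLUP replicate 1 was the highest library for all 6. Their log2 fold changes lay between 0.50 for MT-TG and 0.77 for MT-TF, with limma adjusted p between 0.167 and 0.318. They ran as low as 0.23, for MT-TT without control replicate 2, and as high as 1.07, for MT-TD without GLUP replicate 2. MT-TL1, for leucine and following MT-RNR2, had overlapping groups at 384 and 229 FPKM against 508 and 355 FPKM.

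The 7 remaining heavy-strand tRNAs also overlapped between the groups. MT-TH, MT-TS2 and MT-TL2, for histidine, serine and leucine, lie in a row between MT-ND4 and MT-ND5 and had log2 fold changes of 0.30, 0.28 and 0.47. MT-TW, MT-TI and MT-TK, for tryptophan, isoleucine and lysine, had log2 fold changes of 0.08, −0.01 and −0.02. MT-TM, for methionine, had a log2 fold change of −0.42 (SE 0.48) and stood at 44.97 and 91.1 FPKM in the controls and at 61.5 and 36.8 FPKM with GLUP. Of the light-strand tRNAs, MT-TQ, for glutamine, stood at 43.2 and 80.3 FPKM against 49.4 and 33.3 FPKM, and MT-TE, for glutamate, at 8.73 and 29.4 FPKM against 16.3 and 14.2 FPKM. MT-TS1, for serine, stood at 371 and 286 FPKM against 343 and 272 FPKM. The controls were far apart for MT-TE, MT-TM and MT-TQ, with control replicate 2 higher by 1.64, 1.00 and 0.88 on the log2 scale. MT-TM adjoins MT-ND2, which was higher in control replicate 2 by 1.42, and MT-TQ lies next to MT-TM on the other strand. For these 4 genes the spread between the controls exceeded the difference between the groups.

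**Figure D4:**
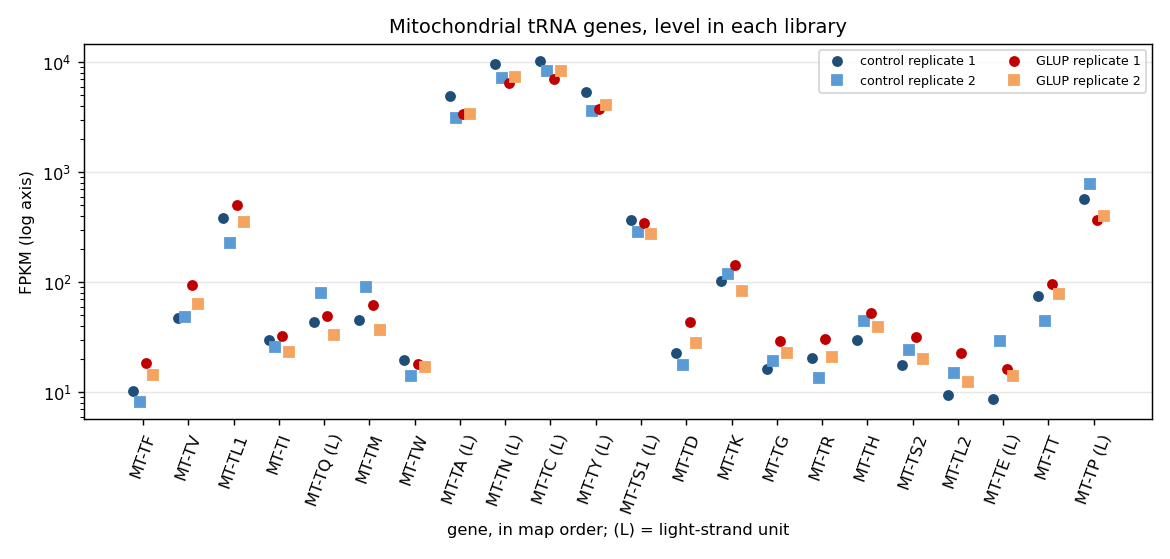
FPKM on a log axis of the 22 tRNA genes in map order, each point a library, with (L) marking light-strand genes. MT-TA, MT-TN, MT-TC and MT-TY stand between 3145 and 10265 FPKM in every library, and the other 18 stand at 775 FPKM or less.

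The genes were also grouped by strand, after their values had been seen. Strand marking is not named in the sources used here, so a gene's value may hold reads from the opposite strand. Of the 9 light-strand genes, 2 had both GLUP libraries below both controls (22.2%, background 49.7%), and 7 had overlapping groups. Of the 28 heavy-strand genes, 14 had both above (50%, background 17.5%) and 2 both below (7.14%). All 9 light-strand genes had a log2 fold change below 0, with a median of −0.26, and 22 of the 28 heavy-strand genes had one above 0, with a median of 0.54, against 66.7% of all genes tested below 0. With a library left out, 6 of the 9 were below 0 without control replicate 1, 7 without GLUP replicate 2, 8 without control replicate 2 and 9 without GLUP replicate 1. Of the 28, between 19 and 25 were above 0. Relative to the median of all genes, 6 of the 9 and 27 of the 28 lay above, so the sign of the light-strand genes depends on the scaling, whereas the gap between the strands, −0.81, does not depend on a factor applied to a whole library. The gap was −0.52 without GLUP replicate 1. The geometric mean level of the 9 light-strand genes over that of the 28 heavy-strand genes was 1.81 and 2.13 in the controls and 0.972 and 1.23 with GLUP. The groups of this ratio did not overlap, and its log2 difference was −0.84 (pooled SD 0.21, exact permutation p = 0.3333, the smallest possible). Among tRNAs alone, the 8 light-strand genes over the 14 heavy-strand genes gave 25.3 and 27.5 in the controls and 13.9 and 19.4 with GLUP, a log2 difference of −0.68 (pooled SD 0.25), which was −0.75 without the 4 tRNAs around the origin and −0.44 without GLUP replicate 1. Among mRNAs, MT-ND6 over the 12 heavy-strand mRNAs was 0.00125 and 0.00167 in the controls and 0.00107 and 0.00087 with GLUP, a log2 difference of −0.58 (pooled SD 0.26, exact permutation p = 0.3333), which was −0.37 without control replicate 2. Set against MT-ND5, which faces it end to end on the other strand, MT-ND6 was 0.784 and 1.21 in the controls and 0.319 and 0.434 with GLUP.

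The fold changes of the whole table moved with GC content, with Spearman's rho of 0.58 across the genes tested, as a description. Among the 37 mitochondrial genes, whose GC content ran from 23.1% to 49.3% against a median of 46.5% for the genes tested, rho was −0.08. With the GC trend of each library removed, the gap between light-strand and heavy-strand genes was −1.11 in place of −0.81. Over the 12 heavy-strand mRNAs, Spearman's rho of fold change with distance along the unit was 0.47, with neighbours that share a transcript and a library among them.

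Nuclear copies of mitochondrial DNA can draw reads from the genes above, or lend reads to them, so the 11 copies with a mean of at least 1 FPKM were compared with their sources. The reference carries 7 of them in a block on chromosome 1, at chr1:564442-570302 in GRCh37, in the same order as MT-ND1 to MT-CO3 on the mitochondrial map. MTATP6P1, at chr1:569076-569756, was the highest at 1808 and 1852 FPKM in the controls and 3091 and 3401 FPKM with GLUP. It differs from MT-ATP6 at 10 of 681 bases, with a longest identical run of 141 bases. Its level was 23.3% and 25.9% of that of MT-ATP6 in the controls and 24.2% and 27.0% with GLUP, so copy and source were higher together. MTCO2P12 stood at 290 and 1233 FPKM in the controls and at 487 and 734 FPKM with GLUP, between 0.266% and 0.955% of MT-CO2. MTCO3P12, MTATP8P1, MTCO1P12, MTND1P23 and MTND2P28 stood at up to 0.981%, 0.0601%, 6.75%, 6.95% and 6.72% of their sources. For MTND1P23 and MTND2P28 control replicate 1 was the lowest library, at 31.2 and 50.4 FPKM, and control replicate 2 the highest, at 110 and 213 FPKM.

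Outside the block, MTND4P12 and MTND4LP30 on chromosome 5, MTCO2P2 on chromosome 18 and MTRNR2L10 on chromosome X stood at no more than 17.0 FPKM, and MTND4P12 was listed at 0 in GLUP replicate 2. The copies on chromosome 1 are between 97.6% and 99.4% identical to their sources, so the split of reads between copy and source is uncertain for MT-ATP6 above all. Adding every copy to its source left the log2 difference of the 37 summed genes at 0.12.

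Nuclear genes supply all the proteins that copy, transcribe and process mitochondrial DNA. Of 17 listed genes for transcription and replication, 15 were tested, and the log2 fold change was below 0 for every one of the 15, where it was for 66.7% of all genes. With a library left out, 13 or 14 of the 15 were below 0. For 12 of the 15 (80%, background 49.7%) both GLUP libraries were below both controls, the median was −0.49 or −0.14 relative to all genes, 5 were lower at an unadjusted p under 0.05 (background 25.4%), and 0 passed limma's adjusted threshold. The lowest were MTERF1, which binds the site behind MT-RNR2, at −2.38, the elongation factor TEFM at −1.57 and MTERF2 at −1.09. MTERF1 stood at 9.45 and 24.5 FPKM in the controls and at 1.48 and 2.98 FPKM with GLUP. TEFM stood at 24.5 and 23.5 FPKM in the controls and at 7.34 and 7.47 FPKM with GLUP (SE 0.30, limma adjusted p = 0.10). The polymerase POLRMT stood at 1.67 and 2.27 FPKM against 1.59 and 2.13 FPKM, with a log2 fold change of −0.05, and the helicase TWNK and the topoisomerase TOP1MT were at −0.14 and −0.01. TFAM, which packages the DNA and acts at its promoters, stood at 4.86 and 6.44 FPKM against 4.43 and 3.51 FPKM, and TFB2M was below the level filter at 0.668 to 1.04 FPKM.

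Of 36 listed genes for mitochondrial RNA processing and stability, 33 were tested. Both GLUP libraries were above both controls for 6 of them (18.2%, background 17.5%) and below for 14 (42.4%, background 49.7%), 2 were higher (6.06%, background 6.37%) and 7 lower (21.2%, background 25.4%) at an unadjusted p under 0.05, the median was −0.42 or −0.07 relative to all genes, and 0 passed the adjusted threshold. LRPPRC, which with SLIRP protects mitochondrial mRNAs, stood at 5.49 and 7.15 FPKM in the controls and at 3.37 and 2.93 FPKM with GLUP. SLIRP stood at 9383 and 17266 FPKM in the controls and at 6235 and 8035 FPKM with GLUP. Both partners were lower in both GLUP libraries as were 49.7% of all genes tested, at −0.81 and −0.85, with limma adjusted p of 0.132 and 0.159. The enzymes that free the tRNA ends, ELAC2 and PRORP, were at −1.0 and −1.23, the poly(A) polymerase MTPAP at −0.87, and the degradosome partners PNPT1 and SUPV3L1 at −0.27 and −0.16. PTCD3 at −1.41 and TRNT1 at −1.38, with PRORP, were the lowest of the list, and QTRT1 at 1.37, FASTK at 1.30 and TBRG4 at 1.23 were the highest. Among 8 regulators of mitochondrial biogenesis, 3 were tested, PPRC1 at 0.44, YY1 at −0.50 and GABPB1 at −0.63.

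Most subunits of the same respiratory complexes are encoded in the nucleus. All 78 listed were tested, with a median of −0.40 or −0.05 relative to all genes, 12 with both GLUP libraries above (15.4%, background 17.5%) and 39 with both below (50%, background 49.7%). The extremes were NDUFA5 at −2.56, NDUFA12 at −2.15 and NDUFS3 at −1.99, and UQCRC1 at 2.00, SDHA at 1.58 and ATP5F1A at 1.42. The 13 mitochondrial mRNAs had a median of 0.66, which is 1.02 above the median of all genes. Both GLUP libraries were above both controls for 6 of the 13 (46.2%, background 17.5%) and below for 3 (23.1%, background 49.7%). Summed, the mitochondrial mRNAs stood at 2.50 and 1.94 times the nuclear subunits in the controls and at 3.36 and 2.73 times with GLUP. The log2 difference was 0.46 (pooled SD 0.24, exact permutation p = 0.3333), and 0.28 without control replicate 2. The mitochondrial sum itself differed by 0.08, and the nuclear sum by −0.38 (pooled SD 0.25), or −0.15 without control replicate 2. The nuclear subunits summed to 80917 and 110593 FPKM in the controls and to 67374 and 78743 FPKM with GLUP. NDUFB9 alone stood at 18888 and 24386 FPKM in the controls and at 21951 and 22439 FPKM with GLUP. Mitochondrial ribosomal proteins, which assemble on MT-RNR1 and MT-RNR2, had a median of −0.24 over 78 genes, which is 0.12 above the median of all genes. Without overlap, 17 were above (21.8%, background 17.5%) and 34 below (43.6%, background 49.7%). MRPL42, MRPL22 and MRPS18C were lowest at −2.38, −1.70 and −1.65, and MRPS34, MRPL38 and MRPS18A highest at 2.19, 1.72 and 1.44.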

How the data were processed

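RNA from 2 control and 2 GLUP-treated HGC-27 samples was sequenced, and the authors deposited a table of FPKM values by gene. The submitters' processing notes list HISAT2, Cufflinks, RSEM and GRCh38.p10, without versions or roles, whereas the gene IDs have the form of the GENCODE annotation lifted to GRCh37, so the annotation used is not settled and positions are those of GRCh37. Rows of the same ID were summed (62492 rows to 62443 genes, 99.55% matched to a name). Depth and read length are not given, so no counting error could be stated.

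Values were analysed as log2(FPKM + 1), for the 7588 genes whose mean reached 1 FPKM, with limma 3.58.1 in R 4.3.3. Variances were moderated along a trend with level, p-values were adjusted by the Benjamini-Hochberg method, and calls were made at an adjusted p under 0.05. Fold changes are on that scale and understate the change of low genes. Ratios per library were compared by an exact two-sided permutation test (scipy 1.17.1). The script was tested on simulated data. All mitochondrial genes were named, with nuclear copies whose mean reached 1 FPKM, the 3 highest and 3 lowest of each nuclear list, and 9 fixed nuclear genes. Members and lists were chosen with earlier results of these data known. Equal replicate numbers were not taken as pairs, since nothing ties them to a shared day. The alternatives were pseudocount, filter, scaling, GC trend, variance trend, replicate block and leaving out each library. Sequences came from the GRCh37 reference.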

Additional observations from a re-analysis of the deposited data

How the results depend on the processing

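Without a replicate block or GC correction, limma called 2 of all genes tested at an adjusted p under 0.05, and 0 of the 37 mitochondrial genes. The first count was 1 with a pseudocount of 0.1, 1 with libraries centred on their medians, 1 with quantile normalization, 0 over all genes with a value above 0, 0 under a minimum mean of 5 FPKM, 0 with the GC trend removed, 0 when the variance trend was left out, and 16 with the replicate block and the GC trend removed. It ran from 4 to 4038 when a library was left out, highest without control replicate 1 and 1421 without control replicate 2, where the lone control is assumed to vary like the other group. The alternatives for the 37 genes were added after the data had been seen: 3 passed with the replicate block and the GC trend removed (MT-CYB, MT-CO3 and MT-RNR2), and 0 to 17 with a library left out (17 with control replicate 1 out and 4 with control replicate 2 out). The replicate block alone gave 2 calls over all genes and 0 among the 37, and left every fold change as it was. At an unadjusted p under 0.05, 2559 genes and 10 of the 37 passed with it, against 2409 and 7 without, and the lowest adjusted p among the 37 was 0.071. Deviations of libraries of equal number correlated at 0.13, with only 2 pairs, so the numbers were not taken to pair the samples.

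The median of the 13 mRNAs above that of all genes was 1.02. It was 0.68 over all genes with a value above 0, 0.45 with quantile normalization, and 0.73 to 1.17 with a library left out. The median of the nuclear genes for mitochondrial transcription, replication and RNA processing, relative to that of all genes, was −0.08. It was −0.40 over all genes above 0, −0.17 under the minimum of 5 FPKM, and −0.20 to −0.0099 with a library left out (GLUP replicates 1 and 2). The gap between light-strand and heavy-strand genes was −1.11 with the GC trend removed, with or without the replicate block, and −1.01 to −0.52 with a library left out. The summed 37 genes differed by 0.45 with libraries centred on their medians, in place of 0.11. Among the ratios within a library, the 4 given next kept their direction under every alternative run for them. With each library left out they ran from −0.79 to −0.37 for MT-ND6 over the heavy-strand mRNAs, −0.38 to −0.10 for MT-RNR2 over MT-RNR1, −1.14 to −0.70 for mRNA over rRNA (−0.49 without MT-CO2), and 0.28 to 0.64 for mitochondrial over nuclear mRNAs. MT-ATP8 over MT-ATP6 ran from −0.39 to 0.78.

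Relative to the median of all genes, some values changed sign, and the cause was not tested. Over all genes with a value above 0 they were −0.026 for MT-ND1, −0.19 for MT-TA, −0.24 for MT-TN, −0.24 for MT-TC, −0.16 for MT-TY, −0.072 for MT-TS1, −0.33 for MT-CO2, −0.033 for MT-ND4 and −0.062 for MT-TE. With quantile normalization they were −0.089 for MT-TA, −0.50 for MT-TN, −0.54 for MT-TC, −0.096 for MT-TY and −0.51 for MT-ND4. MT-TM was at 0.039 with a pseudocount of 0.1, 0.0076 under the minimum of 5 FPKM and 0.023 with the GC trend removed, with or without the block. Under that GC correction MT-ND6 was at 0.12 and MT-TP at 0.10. MT-CO2 was at −0.00042 when rescaled to nuclear genes. With a library left out the ranges were −0.63 to 0.25 for MT-TQ, −0.58 to 0.42 for MT-TM, −0.35 to 1.07 for MT-ND2, −0.19 to 0.45 for MT-TA, −0.13 to 0.28 for MT-TN, −0.078 to 0.23 for MT-TC, −0.14 to 0.47 for MT-TY, −0.13 to 0.11 for MT-CO2, −0.057 to 0.71 for MT-TK, −0.41 to 0.091 for MT-ND6 and −0.56 to 1.08 for MT-TE.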
